A study of Mus musculus and Rattus norvegicus with 37 samples.

Results

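The 10 genes described here take part in assembling VLDL, the triglyceride-rich particle that the liver secretes, or encode apolipoproteins of VLDL and HDL. They were chosen by name: Apoa1, Apoa2, Apoa4, Apob, Apoc1, Apoe, Apom, Mttp, Tm6sf2 and Apobec1. They were looked up by exact symbol in 4 deposited tables of liver gene expression. The 2 mouse tables held 10 matching entries among 48059 named ones, and the 2 rat tables held 11 among 32549, because Apoc1 is listed there as 2 entries. The rule itself uses no measured value, but the genes were chosen with earlier results of these data known. Each of these entries passed the minimum level for testing in every table.

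The livers came from 21 female C57BL/6J mice and 16 male Zucker rats, all taken in the fed state. LNA29 combines a locked nucleic acid inhibitor of miR-29a with another of miR-29b and miR-29c. It was given once under the skin at 20 mg/kg each, and livers were taken on day 7. The WT/floxed mice received LNA29 (n = 8, of which 4 were WT and 4 floxed) or saline (n = 5, of which 3 were WT and 2 floxed), and the authors had left 1 floxed saline mouse out as an outlier. Floxed mice carry Sirt1 alleles that Cre recombinase can cut, and the SIRT1KO mice, their littermates, are meant to lack Sirt1 in the liver alone. They received LNA29 (n = 4) or saline (n = 4) and, like the floxed mice, were 15 to 20 weeks old. The methods give 9 to 11 weeks for the C57BL/6J mice in the study of acute LNA29 effects, and do not say whether the sequenced WT mice are among them. Zucker Fatty rats carry a mutation of the leptin receptor in both alleles (fa/fa) and become obese, and were compared with Zucker Lean rats at 5.5 months (n = 4 each). Younger Zucker Fatty rats of 3 months received BT2, an inhibitor of the branched-chain ketoacid dehydrogenase kinase, at 20 mg/kg a day into the abdomen for 1 week, or the vehicle dimethylsulfoxide (n = 4 each). BT2 and vehicle rats are therefore both obese, and both carry the receptor mutation.

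ApoB is the one large protein that stays with a VLDL particle from its synthesis to its uptake. MTTP, the microsomal triglyceride transfer protein, loads lipid onto it inside the endoplasmic reticulum as it is made, and TM6SF2, a membrane protein of the same compartment, takes part in adding the bulk of the lipid. APOBEC1 edits a cytidine in the Apob transcript to uridine, which creates a stop codon and a shorter form of the protein, and in mice and rats liver joins intestine in doing so. The small apolipoproteins move between particles at their surface. ApoE is the ligand by which the liver takes remnants back up, apoC-I slows that uptake, apoA-I and apoA-II are the main proteins of HDL, apoM carries sphingosine-1-phosphate on HDL, and apoA-IV rises with fat transport in intestine and liver.

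The inhibited miRNAs are shown because the LNA29 comparisons depend on what these molecules can pair with. Their mature sequences from RefSeq, 5′ to 3′, have the seed (bases 2 to 8, the part that pairs with a target) in capitals:
mmu-miR-29a-3p: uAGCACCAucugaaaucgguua
mmu-miR-29b-3p: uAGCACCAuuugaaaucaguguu
mmu-miR-29c-3p: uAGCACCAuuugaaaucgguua
All share 1 seed, and on GRCm38.p6 they lie on chromosome 6 (Mir29a, 31062673 to 31062694, minus strand) and in pairs on chromosomes 6 (Mir29b-1, 31063025 to 31063047, minus strand) and 1 (Mir29b-2, 195037091 to 195037113, and Mir29c, 195037600 to 195037621, both plus strand). The annotated 3′ UTRs of the 10 genes, read on the sense strand alone from GENCODE M21, were searched for the letters GGTGCT, which pair with bases 2 to 7 of the seed. Their longest 3′ UTRs run from 64 bases in Apoa1 to 1201 in Mttp, and none of the 10 genes holds these letters in any annotated 3′ UTR. Of all 21021 genes with a 3′ UTR, 29.4% hold GGTGCT, 13.8% hold TGGTGCT and 3% hold the full TGGTGCTA, and matches of the longer words are counted in the shorter ones too. To check that the search finds sites, it was run on Col3a1, a collagen gene known as a miR-29 target, whose 959-base 3′ UTR holds GGTGCT at 3 places. The stretch around its TGGTGCTA, in the 3′ UTR on the plus strand of chromosome 1 of GRCm38 at chr1:45348971-45349000, reads as follows with that word in capitals:
Col3a1: aaatgtctcaaTGGTGCTAtaataaataaa

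All values are DESeq2-normalized counts per gene, with each of the 4 tables normalized on its own, so levels were set against each other only within a table. Depth, estimated from what a single read is worth in each library, was 42.6 to 78 M reads in mice but 0.188 to 58.5 M in rats, where Lean replicates 3 and 4 and vehicle replicate 4 lay under 0.2 M reads. Rats of each group were split evenly over the same 2 flow cells named in the labels. Sirt1 had counts of 535 to 617 in the libraries labelled SIRT1KO, but these fill a table of their own, so the counts cannot check the genotype against the WT/floxed mice, and a count over the whole gene cannot show the loss of single exons. Sirt1 levels that the study measured by RT-qPCR were not analysed here. Liver was checked by hepatocyte markers (7 found in the mouse tables, 8 in the rat tables), whose summed counts were 4806738 to 8486063 in WT/floxed livers and 281853 to 369569 in the Fatty and Lean livers. Enterocyte genes matter here because intestine uses Apob, Mttp, Apoa4 and Apobec1 too, and the 5 listed enterocyte markers summed to 1799 to 4409 counts in WT/floxed livers, of which Fabp2 made up nearly the whole. In rat livers the 4 of them that the tables hold summed to 0 to 21.1 counts, with Lct and Cdx2 at 0 in all 16 rats. Together, the 10 genes made up 3.29% to 4.24% of the counts of a WT/floxed library, 3.77% to 4.70% of a library labelled SIRT1KO, 2.46% to 3.39% of a Fatty or Lean library and 2.68% to 2.81% of a BT2 or vehicle library.

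Of the genes for surface proteins, 4 (Apoa2, Apoe, Apoa1 and Apoc1) stood far above those that build the particle, Apom overlapped with Apob, and Apoa4 lay below Apob. Per kilobase of annotated exon in the 5 saline-treated WT/floxed mice, Apoa2 averaged 669738 normalized counts ± 124637 (SD, n = 5) and Apoe 553517 ± 38208, and the ranges of these 2 overlapped. Apoa1 followed at 307005 ± 37798 and Apoc1 at 173557 ± 32860, each clear of its neighbours in the order. Apom (14158 ± 2463) and Apob (13344 ± 1988) overlapped, with Apoc1 at 12.3 times Apom, and were followed without overlap by Apoa4 (3891 ± 592), Mttp (2625 ± 369), Tm6sf2 (1355 ± 126) and Apobec1 (219 ± 18.9). In the saline-treated mice labelled SIRT1KO the order was the same but for Apob and Apom, which changed places and overlapped again. Apoa2 and Apoe did not overlap there, and Apoa4 at 2954 ± 739 overlapped with Mttp at 2760 ± 523. These lengths count every base that any annotated transcript of a gene covers, such as 2138 for Apoe and 6206 for Mttp. They can exceed the length of the transcripts present in liver, which lowers the value per kilobase. Genes close in the order could therefore change places by transcript length, which was not tested. No such order is given for rats, for which no annotation was used here.

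**Figure D1:**
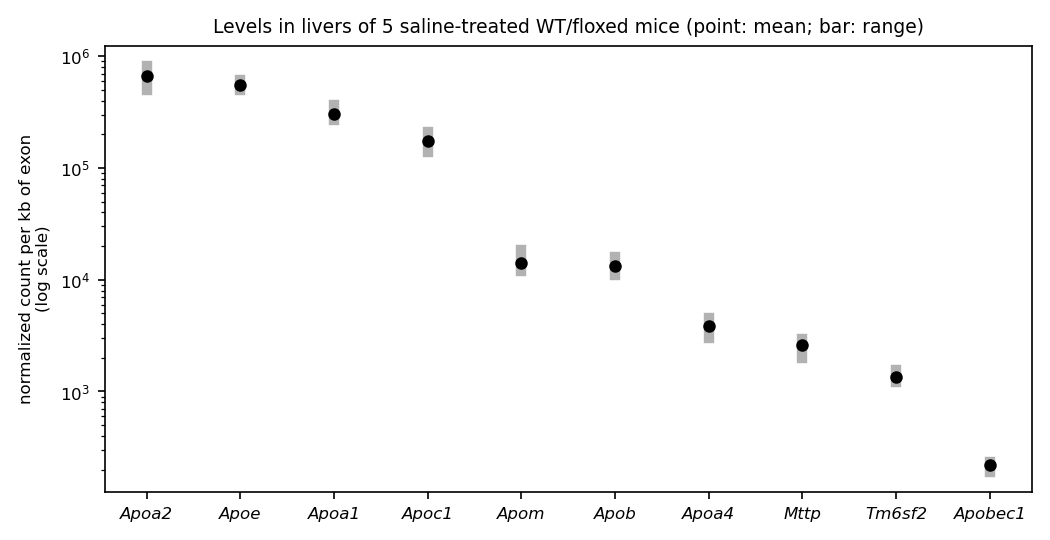
Levels of the 10 genes in the liver of 5 saline-treated WT/floxed mice, as normalized counts per kilobase of annotated exon on a log axis, with points for means and grey bars for the range over mice. Apoa2 and Apoe lie highest and overlap, and Apobec1, at 219, lies lowest.

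In the mouse genome 2 pairs of these genes are neighbours. Apoa1 (GRCm38 chromosome 9, 46228580 to 46230466, plus strand) and Apoa4 (46240696 to 46243459, plus strand) are 10229 bases apart, with Apoc3 between them. Apoe (chromosome 7, 19696109 to 19699188) and Apoc1 (19689481 to 19692660) are both on the minus strand, 3448 bases apart. Apoa4 overlaps genes annotated on the other strand (Gm10680 and Gm47528), and Mttp (chromosome 3, 138089854 to 138144968, minus strand) overlaps Trmt10a and Gm43691. Whether counting used the strand is not stated, so reads of these overlapping genes may not have been told apart from those of Apoa4 and Mttp. The others are Apoa2 (chromosome 1, 171225054 to 171226379), Apob (chromosome 12, 7977648 to 8016835), Apom (chromosome 17, 35128997 to 35132050), Tm6sf2 (chromosome 8, 70072924 to 70080066) and Apobec1 (chromosome 6, 122577792 to 122602444), with no annotated gene overlapping them.

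The first comparison asked which liver genes change when miR-29 is inhibited in mice with Sirt1. Apoa1 rose with LNA29 in WT/floxed mice, and none of the other 9 genes passed the test. A mouse gene was called when limma's moderated test on log2(normalized count + 1) gave p under 0.05 and a Benjamini-Hochberg adjusted p under 0.2, where the gene also averaged over 50 normalized counts and moved by over 1.2-fold. By this rule 1 of the 10 genes was higher and 0 lower, while 2.42% of the 15827 genes tested were higher and 1.93% lower. The median log2 fold change was -0.03 over the 10 genes and 0.002 over all genes tested, and 1 of the 10 genes, against 1.51% of all, had groups that did not overlap.

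Apoa1, which encodes the main protein of HDL, had counts of 393648, 354463, 332004, 364118 and 453059 in the 5 saline-treated livers. The 8 LNA29-treated livers had counts from 455017 to 690143 with a median of 539303. Every LNA29 value was thus above every saline value, although the highest saline liver came close to the lowest LNA29 liver. The means were 379458 ± 46718 (SD, n = 5) with saline and 542530 ± 70679 (SD, n = 8) with LNA29, a log2 fold change of 0.51 (SE 0.11, 95% confidence interval 0.28 to 0.75, adjusted p = 0.0312). The two-sided exact permutation test gave p = 0.000777, the smallest value these group sizes allow. Within the 3 flow cells named in the labels the log2 fold changes were 0.61, 0.47 and 0.62, and they were 0.48 among WT and 0.52 among floxed mice. The call held without any 1 of the 13 libraries, with adjusted p-values up to 0.0838, but was lost in WT mice alone (adjusted p = 0.357) and in floxed mice alone (adjusted p = 0.219). In bulk liver, a change in the RNA per cell and a change in the share of cells that make it cannot be told apart.

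Of the genes that build the particle, Apob had 152715 to 221241 counts with saline (median 174424) and 156361 to 228419 with LNA29 (median 201205). The fold change of Apob, the backbone protein, was 0.07 on the log2 scale (95% confidence interval -0.18 to 0.32, adjusted p = 0.859), and the groups lay across each other. Mttp had counts of 18400, 12471, 17009, 17472 and 16088 with saline and of 15465 to 18953 with LNA29 (median 15826), which is a log2 difference of 0.01 (95% confidence interval -0.17 to 0.20). Tm6sf2 lay between 2318 and 2969 with saline and between 2176 and 2604 with LNA29, a log2 difference of -0.09 (95% confidence interval -0.24 to 0.06). The intervals of Mttp and Tm6sf2 reach no further than 0.24 from 0 on the log2 scale, so a change larger than about 1.2-fold in either direction was outside them. Apobec1, the editing enzyme, had 513 to 637 counts with saline and 464 to 960 with LNA29 (log2 difference 0.30, adjusted p = 0.427). Among the alternatives run it was called only when LNA29 replicate 3, the lowest of its group, was left out (log2 0.39, adjusted p = 0.141).

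The remaining surface proteins gave log2 differences between -0.20 and -0.003. Apom was the most negative at -0.20 (95% confidence interval -0.41 to 0.01, adjusted p = 0.417), with 12078 to 18571 counts with saline and 10676 to 14125 with LNA29. Apoe differed by -0.12, Apoa2 by -0.09, Apoc1 by -0.06 and Apoa4, the neighbour of Apoa1, by -0.003 (95% confidence interval -0.29 to 0.28). Adjusted p-values of these 5 genes ran from 0.417 to 0.996, and the groups overlapped for each of them.

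**Figure D2:**
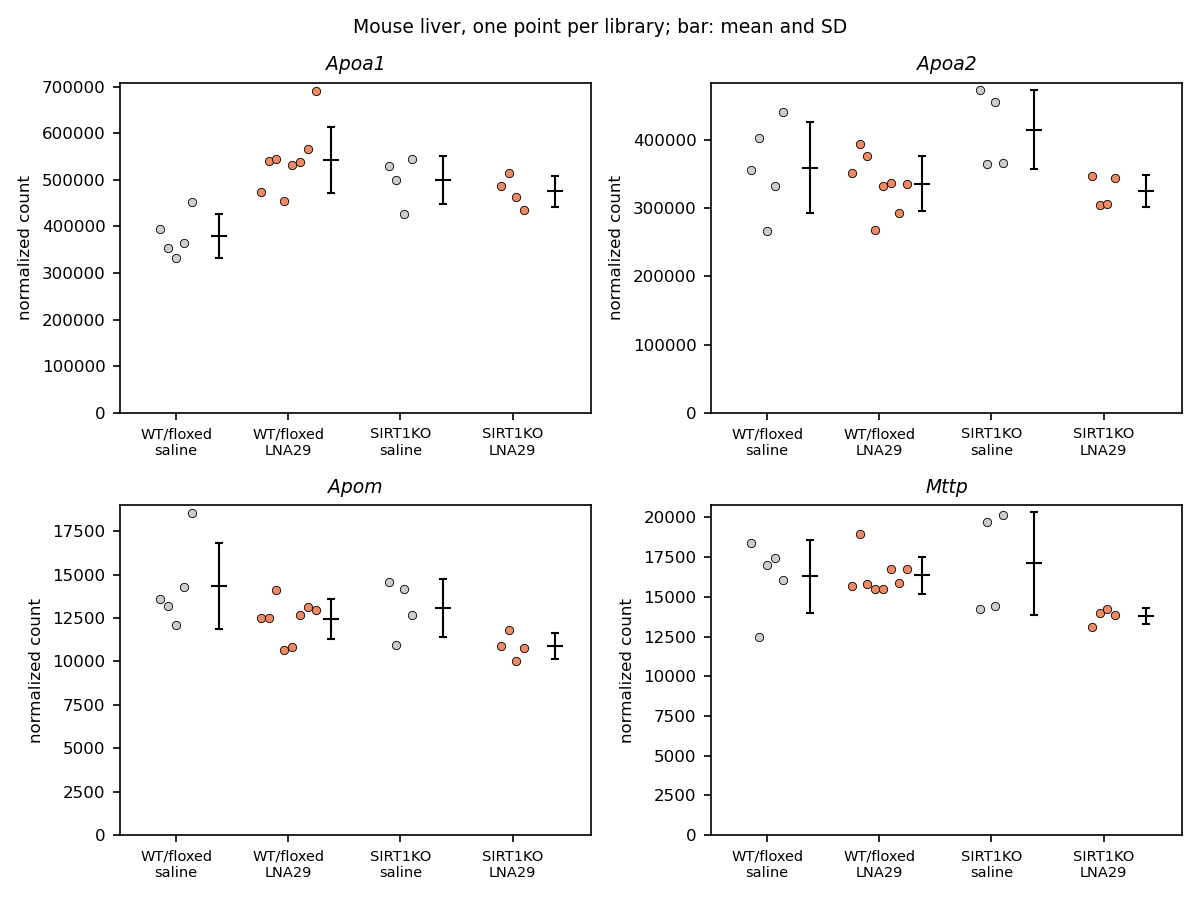
Normalized counts of Apoa1, Apoa2, Apom and Mttp in each mouse liver (linear axes from 0), with 1 point per library and bars for the mean ± SD, for the 4 mouse groups. The 8 LNA29-treated WT/floxed points of Apoa1 lie at 455017 and above, over all 5 saline points, while in mice labelled SIRT1KO the Apoa1 points of both groups mix and those of Apoa2 and Mttp do not.

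The wider lists of the pathway held few called genes in WT/floxed mice. Among other apolipoproteins 1 of 8 tested genes was lower (Apon, 21642 ± 1059 counts with saline and 18059 ± 2401 with LNA29, log2 -0.27, adjusted p = 0.177). None of the 21 genes for VLDL assembly partners and export from the endoplasmic reticulum passed, nor did any of the 7 Apob editing cofactors or the 6 genes of HDL lipidation. At an unadjusted p under 0.05 the counts were 2 of 21, 0 of 7 and 1 of 6, beside 2107 of the 15827 genes tested. Among 10 receptor genes Sdc1, a heparan sulphate proteoglycan that takes up remnants, was lower (19143 to 15049, log2 -0.35, adjusted p = 0.15). Of 16 transcription regulators of apolipoprotein genes, Foxa3 was higher (1872 ± 522 to 3068 ± 635, log2 0.73, adjusted p = 0.0688) and Nr5a2 lower (mean 4112 to 3297, log2 -0.32, adjusted p = 0.132). The list medians, between -0.07 and 0.05, lay close to that of all genes.

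Other genes moved in the same livers. Ahsg, a hepatocyte secretory protein, was 1 of 7 tested hepatocyte markers called (468446 to 888977, log2 0.93, adjusted p = 0.000151), and the markers' summed counts were 4806738 to 7824563 with saline and 6658214 to 8486063 with LNA29. Of the 7 differences 5 were positive, with a median of 0.22, where that of all genes tested was 0.002. Stellate cell markers had 2 of 8 genes higher, Col3a1 among them, with sums of 17777 to 21640 with saline and 22212 to 27371 with LNA29, and none of the 8 was at 0. Col3a1, itself a known miR-29 target, went from 2204 ± 565 to 5088 ± 1497 (log2 1.19), while the median of the stellate list was 0.08. Of 6 endothelial markers Lyve1 was lower (340 ± 89.7 to 236 ± 43.9, log2 -0.51, adjusted p = 0.165), 2 differences were positive and the median was -0.08. Of 9 fasting genes Fgf21 alone was called (log2 1.90), but 8 differences were positive and the list's median was 0.75. Sums of the fasting genes, 151198 to 379049 with saline and 158255 to 443522 with LNA29, overlapped. Of 13 clock genes Cry2 was called lower (log2 -0.46), 6 differences were positive and the median was -0.22. The part of these in the Apoa1 difference was not tested.

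The same treatment was then examined in mice labelled SIRT1KO. None of the 10 genes was called, but 9 of the 10 log2 differences were negative, with a median of -0.17 where that of all 15901 genes tested was -0.003. The counts of called genes, 0 higher and 0 lower, stand beside 1.17% and 0.667% of all genes. At an unadjusted p under 0.05 there were 3 of the 10 genes (Apoa2, Apom and Mttp), beside 1780 of all genes tested. Groups did not overlap for 2 of the 10 genes and for 6.95% of all genes.

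Apoa2 had counts of 473393, 364857, 456434 and 366677 with saline and of 346612, 304200, 305810 and 344943 with LNA29. All 4 LNA29 livers were below all 4 saline livers, and saline replicates 1 and 3 stood above saline replicates 2 and 4. The log2 difference was -0.34 (SE 0.12, 95% confidence interval -0.62 to -0.07, p = 0.0183, adjusted p = 0.325), and the exact permutation test gave its smallest possible value for 4 against 4, p = 0.0286. Mttp had counts of 14231, 19691, 14413 and 20174 with saline and of 13087, 13984, 14212 and 13851 with LNA29. Its groups nearly met, and here saline replicates 2 and 4 stood above 1 and 3, the reverse of Apoa2. The log2 difference was -0.29 (95% confidence interval -0.58 to -0.01, adjusted p = 0.432). Apom had counts of 14552, 10921, 14149 and 12686 with saline and of 10877, 11814, 10016 and 10794 with LNA29 (log2 -0.26, adjusted p = 0.397), which overlapped. Under sample quality weights Mttp alone passed the rule (log2 -0.38, adjusted p = 0.172).

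Apoa1 gave no difference of that kind in these mice, with counts of 529536, 498910, 426712 and 544621 with saline and of 486063, 513889, 464296 and 436150 with LNA29. The groups lay across each other (log2 -0.07, 95% confidence interval -0.32 to 0.18, adjusted p = 0.853). Apob was tight, at 186590 to 212776 with saline and 180017 to 187534 with LNA29 (log2 -0.10, 95% confidence interval -0.28 to 0.09). Apoa4, Apoc1, Apoe and Tm6sf2 differed by -0.33, -0.20, -0.15 and -0.07, with adjusted p-values from 0.623 to 0.783. Apobec1 was the exception in sign, with 422, 774, 551 and 649 counts with saline and 564, 860, 686 and 882 with LNA29 (log2 0.33, 95% confidence interval -0.13 to 0.79).

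Whether the LNA29 response differs between the genotypes was tested as an interaction over 15617 genes, where 0.0448% of genes passed an adjusted p under 0.2. None of the 10 genes passed, and 1 of them, Apoa1, had an unadjusted p under 0.05, as did 1428 of all genes. The response of Apoa1 was lower by 0.58 on the log2 scale in mice labelled SIRT1KO (SE 0.16, adjusted p = 0.261 by limma). It passed without WT/floxed LNA29 replicate 1 (adjusted p = 0.157), without WT/floxed LNA29 replicate 4 (adjusted p = 0.182) and without SIRT1KO saline replicate 3 (adjusted p = 0.128), and reached an adjusted p of 0.479 without SIRT1KO saline replicate 4. Mttp came next at -0.31 (adjusted p = 0.557), and the remaining 8 genes had adjusted p-values of 0.719 to 0.985.

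In several lists around the particle 1 gene was called lower with LNA29 in mice labelled SIRT1KO, beside 0.667% of all genes tested. Apoc2, the activator of lipoprotein lipase, had 8660 ± 386 counts with saline and 6317 ± 454 with LNA29 (n = 4 each, log2 -0.46, adjusted p = 0.0604), the 1 of 8 tested apolipoproteins outside the 10 genes that was called. Sar1b, the small GTPase that starts the coat of the vesicles carrying lipoproteins out of the endoplasmic reticulum, was the 1 of 21 assembly genes called (11435 ± 336 to 9162 ± 416, log2 -0.32, adjusted p = 0.128). Pltp, which transfers phospholipid between lipoproteins, was the 1 of 6 HDL genes (8791 ± 1749 to 4761 ± 844, log2 -0.88, adjusted p = 0.0794), and Cebpa the 1 of 16 regulators (23993 ± 3191 to 17109 ± 2288, log2 -0.49, adjusted p = 0.181). For each of these 4 genes the groups did not overlap, as for 6.95% of all genes tested. The lists did not all move with them. The median was 8.77e-05 over the assembly genes (11 of 21 positive) and -0.05 over the HDL genes (3 of 6 positive). It was -0.13 over the other apolipoproteins (2 of 8 positive), -0.13 over the regulators (2 of 16 positive) and 0.03 over the editing cofactors (4 of 7 positive). No editing cofactor of 7 passed by limma, and none had an unadjusted p under 0.05.

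Marker lists moved here as well. Of 10 macrophage and Kupffer cell markers 2 were lower (Vsig4 and Clec4f) and 8 had an unadjusted p under 0.05, with sums of 23867 to 27943 with saline and 18726 to 23068 with LNA29. Of 6 endothelial markers Lyve1 was lower without overlap (564 ± 160 to 252 ± 78.1, log2 -1.17, adjusted p = 0.115). In that list 3 differences were positive and the median was -0.02. Stellate cell markers summed to 20118 to 24171 with saline and 26551 to 28528 with LNA29. Much of that rise was in Col3a1, itself a known miR-29 target (2074 ± 475 to 6945 ± 1609, log2 1.74). It was the 1 of 8 stellate markers called, and the list's median was 0.23. Of the 5 enterocyte markers 2 were tested, and these went opposite ways, with a median of -0.04. Fabp2 was lower (1795 ± 350 to 1145 ± 108, log2 -0.63). It made up nearly the whole of the list's sum, 1458 to 2237 with saline and 1054 to 1334 with LNA29. The study counts Fabp2 among the liver genes of fatty acid oxidation that fell in these mice. Cdx2 was at 0 in all 8 mice. Ahsg was higher by 0.83, and the hepatocyte markers summed to 5324728 to 6824791 with saline and 6890222 to 7787384 with LNA29. Of 9 fasting genes Igfbp1 and G6pc were higher, by 1.19 and 0.75, while 4 of the 9 differences were positive and the list's median was -0.24. Of 13 clock genes none was called, 6 had an unadjusted p under 0.05 by limma, and 5 differences were positive. Their sums of 14983 to 36006 with saline and 12623 to 16588 with LNA29 overlapped. Dbp had 146 to 7449 counts with saline and 48.5 to 86.6 with LNA29 (log2 -3.05, adjusted p = 0.303). How the marker, fasting and clock lists bear on the negative differences of the 10 genes was not tested.

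The obese liver of Zucker Fatty rats was compared with that of Zucker Lean rats as a genetic model of obesity. Here 6 of the 11 entries passed an adjusted p under 0.05. Apob, Apoe, Apom and both Apoc1 entries were lower in Fatty rats and Apoa4 was higher. The 1 higher and 5 lower entries stand beside 1.83% and 2.46% of the 8765 genes tested. Groups did not overlap for 8 of the 11 entries and for 14.4% of all genes. The median log2 fold change was -0.20 over the 11 entries and 0.07 over all genes tested.

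Apob, the backbone of the particle, had 10348, 10863, 9523 and 9607 counts in Lean rats and 7824, 7872, 7715 and 7387 in Fatty rats. All Fatty livers were below all Lean livers, and they lay close to each other. The means were 10085 ± 637 and 7699 ± 218 (SD, n = 4 each), a log2 fold change of -0.39 (SE 0.08, 95% confidence interval -0.56 to -0.21, adjusted p = 0.0222, exact permutation p = 0.0286). Mttp and Tm6sf2, which act on apoB in the endoplasmic reticulum, went the other way without passing. Mttp had 403, 422, 379 and 313 counts in Lean and 523, 491, 483 and 446 in Fatty rats (log2 0.36, 95% confidence interval 0.10 to 0.62, adjusted p = 0.134), and these groups did not overlap. Tm6sf2 had 72.8, 56.4, 84.3 and 31.3 counts in Lean and 119, 84.7, 87.7 and 93.3 in Fatty rats (log2 0.72, 95% confidence interval 0.08 to 1.36, adjusted p = 0.239), again without overlap, though the groups nearly touched. In the 2 shallowest Lean libraries a value of 31.3 or 31.6 counts is 3 reads, so the lowest Tm6sf2 value rests on 3 reads. Apobec1 had 11, 15.5, 0 and 0 counts in Lean and 19.4, 15.3, 10.4 and 23.3 in Fatty rats. Its 2 zeros fall in those same Lean libraries, where 3 reads are worth over 31 counts, so a difference in Apobec1 was not detectable at this depth. In the flow cell of replicates 1 and 2 Apobec1 averaged 13.3 counts in Lean and 17.4 in Fatty rats.

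Among the surface proteins, Apom fell most. It had 1072, 751, 921 and 769 counts in Lean and 558, 380, 550 and 462 in Fatty rats, which did not overlap (878 ± 150 to 488 ± 83.8, log2 -0.85, SE 0.16, adjusted p = 0.0157). Apoc1 entry 1 had 4239, 3024, 3321 and 2924 counts in Lean and 2067, 1857, 1993 and 2107 in Fatty rats (3377 ± 599 to 2006 ± 110, log2 -0.74, SE 0.12, adjusted p = 0.00779). Apoc1 entry 2 had 3690, 2230, 2096 and 2464 counts in Lean and 1657, 1374, 1594 and 1548 in Fatty rats (2620 ± 729 to 1543 ± 121, log2 -0.73, SE 0.17, adjusted p = 0.0393). The tables do not say how both entries of Apoc1 differ, and reads may be split between them. They are 1 gene but were counted as 2 entries, so the 5 lower entries are not 5 separate genes.

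Apoe, the ligand for remnant uptake, had 44439, 37734, 34162 and 33571 counts in Lean rats and 27245, 26145, 27118 and 28210 in Fatty rats. The Fatty livers were again the tighter group, and all lay below the Lean livers (37476 ± 4993 to 27179 ± 845, log2 -0.45, SE 0.11, adjusted p = 0.0413). Apoa4 was the only one of the 11 entries called higher in Fatty rats, with 1914, 1956, 2676 and 1556 counts in Lean and 3674, 3027, 3821 and 2932 in Fatty rats. The groups did not overlap (2026 ± 469 to 3364 ± 449, log2 0.75, SE 0.16, adjusted p = 0.0319, exact permutation p = 0.0286). The HDL proteins overlapped between the groups, with Apoa1 at -0.20 (95% confidence interval -0.56 to 0.16) and Apoa2 at -0.03 (95% confidence interval -0.40 to 0.34).

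**Figure D3:**
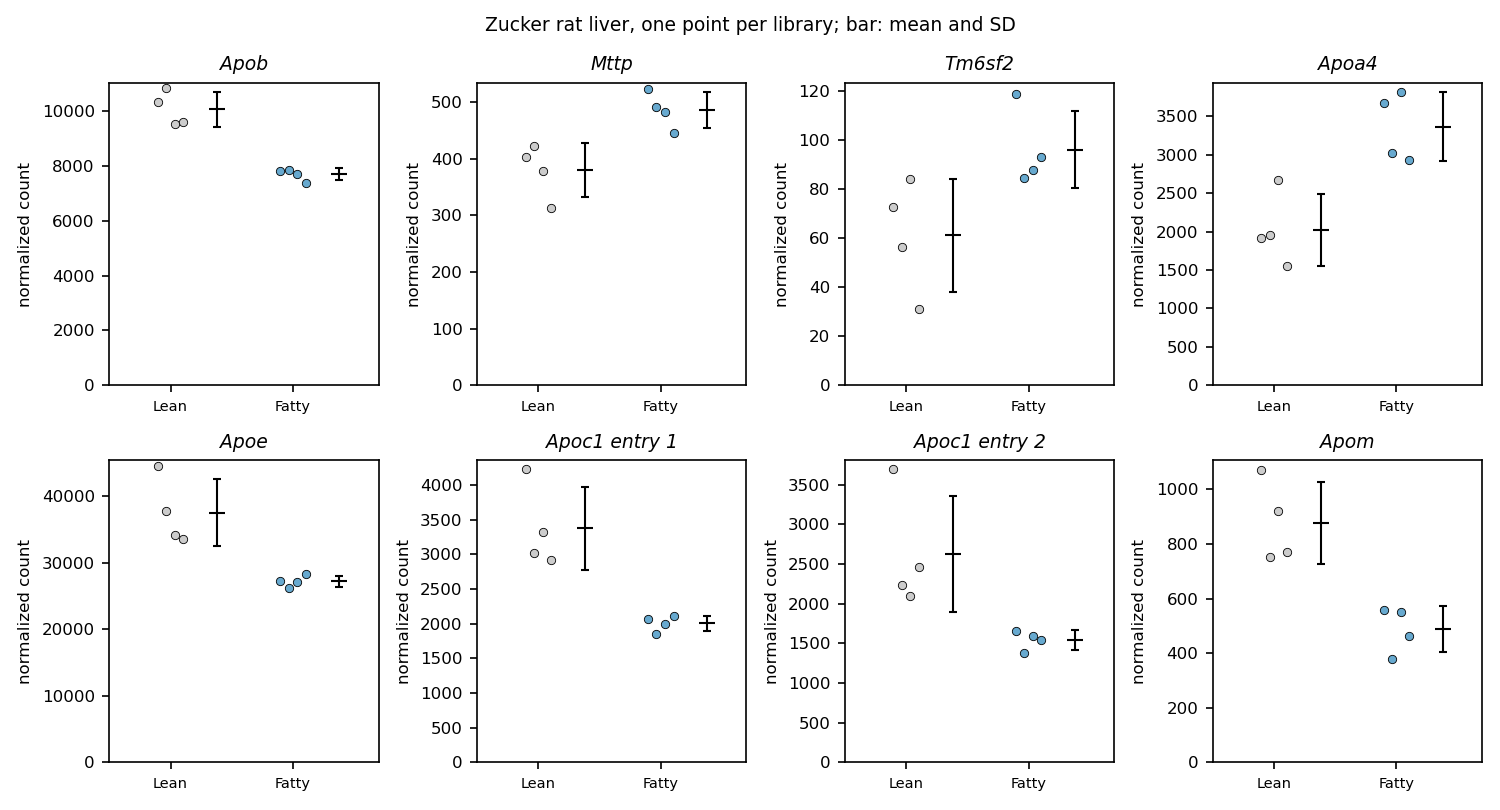
Normalized counts in each Zucker Lean and Zucker Fatty liver for the 8 entries whose groups did not overlap (linear axes from 0), with 1 point per library and bars for the mean ± SD. Apob, Apoe, Apom and both Apoc1 entries lie lower and Apoa4 higher in all 4 Fatty livers, while Mttp and Tm6sf2 lie higher but did not pass the test.

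The 2 flow cells gave the same directions for the 6 called entries, but not for Apoa1 (-0.53 in that of replicates 1 and 2 and 0.12 in the other) or Apoa2 (-0.22 and 0.16). In the flow cell of replicates 1 and 2 the log2 fold changes were -0.43 for Apob, -0.62 for Apoe, -0.96 for Apom, -0.87 and -0.93 for the Apoc1 entries and 0.79 for Apoa4, and in the other they were -0.34, -0.29, -0.74, -0.60, -0.53 and 0.71. Without the 2 Lean libraries under 0.2 M reads, an alternative chosen after the data were seen, the same 6 entries passed, with adjusted p-values of 0.0134 to 0.0494. That fit kept Lean replicates 1 and 2 alone, both of 1 flow cell, against Fatty libraries of both flow cells. Group and flow cell were thus partly mixed in it, and the flow cell of the Lean libraries kept gave the larger differences for these 6 entries. With flow cell as a covariate 3 of the 6 passed (Apob, Apom and Apoc1 entry 1), and Apoa4, Apoe and Apoc1 entry 2 had adjusted p-values of 0.052 to 0.055. With TMM scaling added 2 passed (Apom and Apoc1 entry 1), and with no minimum level 1 did (Apoc1 entry 1), where Apob reached an adjusted p of 0.279 and Apoe of 0.619. Losing 1 library often ended a call too. Apoc1 entry 1 passed in each of the 8 fits, and Apom failed only without Fatty replicate 4 (adjusted p = 0.0556). Apob failed in 4 fits, without Fatty replicates 1, 3 or 4 or Lean replicate 2 (adjusted p up to 0.0827), and Apoe in 5, without any Fatty replicate or Lean replicate 2 (up to 0.112). Apoc1 entry 2 failed in 6, without any Fatty replicate or Lean replicates 2 or 4 (up to 0.118), and Apoa4 in 7, all but the fit without Lean replicate 3 (up to 0.111). Directions held in all these fits, and the number of entries called was 1 without Fatty replicate 4, 2 without Fatty replicates 1 or 3 or Lean replicate 2, and 3 without Fatty replicate 2.

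Further apolipoproteins were lower in Fatty rats, 4 of the 8 tested outside the 10 genes, with a list median of -0.46. Apoa5, which helps lipoprotein lipase clear triglyceride, fell from 3233 ± 436 to 1501 ± 221 (log2 -1.11, adjusted p = 0.00181), Apoh from 9097 ± 721 to 5587 ± 434 (log2 -0.70, adjusted p = 0.00269), Apoc2 from 2297 ± 362 to 1477 ± 50.1 (log2 -0.62, adjusted p = 0.0157) and Apon from 496 ± 31.5 to 268 ± 72.3 (log2 -0.92, adjusted p = 0.0173). Apoc3, which lies between Apoa1 and Apoa4 in the mouse genome and was named here after its values were seen, was not among them (6923 to 6567, log2 -0.07, adjusted p = 0.707). None of the 21 tested entries for assembly partners and export passed, 3 of them had an unadjusted p under 0.05, and their median was 0.13. None of 6 editing cofactors or 6 HDL genes passed, with 0 and 2 at an unadjusted p under 0.05. Of all 8765 genes tested, 1455 had an unadjusted p under 0.05. Sdc1 was higher (268 ± 38.2 to 403 ± 30.8, log2 0.60, adjusted p = 0.0269), the 1 of 7 receptor genes called, and Foxa1 was lower (76.6 ± 42.7 to 21.5 ± 5.72, log2 -1.67, adjusted p = 0.0377), the 1 of 14 regulators.

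Other lists differed between these rats too. Of 8 hepatocyte markers 5 were lower (Fga, Cps1, Ahsg, Fgb and Ttr) and 1 higher (Tf), with a median of -0.48, while their sums of 313009 to 369569 in Lean and 281853 to 368044 in Fatty rats overlapped. Stellate cell markers summed to 544 to 585 in Lean and 914 to 1281 in Fatty rats, with 1 of 8 called (Col3a1, log2 1.56) and none at 0. Clock genes had 4 of 12 higher and 2 lower, among them Dbp (9.99 ± 12.4 to 207 ± 77.2) and Arntl (62.7 ± 16.5 to 12.3 ± 8.76), and the hour at which each liver was taken is not given. Red blood cell markers summed to 507 to 1254 in Lean and 1113 to 2932 in Fatty rats, and each of the 3 tested had an unadjusted p under 0.05 without being called. Of 5 endothelial markers Stab2 was higher (30 ± 6.08 to 68.8 ± 17.4, log2 1.16, adjusted p = 0.0327), while the sums of 334 to 372 in Lean and 306 to 439 in Fatty rats overlapped. Markers of pancreatic acinar cells summed to 15.2 to 41.8 in Lean and 4.18 to 9.41 in Fatty rats. A single read is worth 10.53 and 10.44 counts in Lean replicates 3 and 4. Low counts, as for Stab2, Dbp, Arntl, Foxa1 and the acinar markers, thus rest on few reads there. How these differences bear on the lower apolipoprotein counts was not tested.

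**Figure D4:**
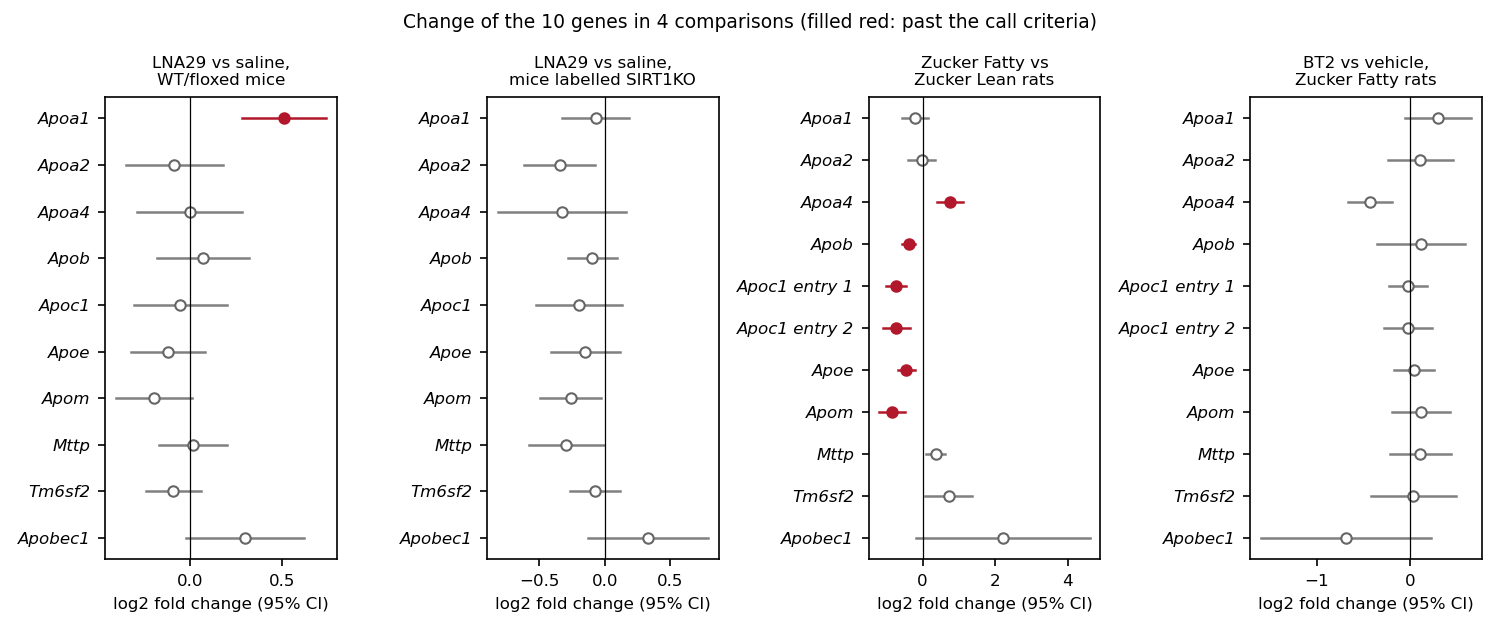
Log2 fold changes of the 10 genes with 95% confidence intervals in the 4 comparisons, each panel on its own axis, with filled red points for those past the call criteria. Apoa1 in WT/floxed mice and the 6 called entries in Zucker Fatty rats are the filled points, and the interval of Apobec1 in rats, from -0.18 to 4.61, is the widest.

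BT2 was compared with vehicle within Zucker Fatty rats. By limma 0 of the 11 entries were higher or lower at an adjusted p under 0.05, as were 0% and 0% of the 8533 genes tested, of which 343 had an unadjusted p under 0.05. The median was 0.04 over the 11 entries and 0.006 over all genes. Groups did not overlap for 1 of the 11 entries, Apoa4, and for 2.98% of all genes.

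Apoa4 had 3398, 3851, 3121 and 3872 counts with vehicle and 2612, 2486, 2829 and 2627 with BT2. All 4 BT2 livers were below all 4 vehicle livers, and the means were 3560 ± 366 and 2638 ± 142 (SD, n = 4 each). The log2 difference was -0.43 (SE 0.11, 95% confidence interval -0.66 to -0.19, p = 0.00211), the adjusted p was 0.897, and the exact permutation test gave p = 0.0286, the smallest it can give here. The difference was -0.51 in one flow cell and -0.35 in the other, and over all alternatives it stayed between -0.49 and -0.39, with adjusted p-values of 0.481 to 1. Apoa1 had 3746, 3472, 3180 and 2457 counts with vehicle and 3477, 3305, 4898 and 4199 with BT2 (log2 0.30, 95% confidence interval -0.06 to 0.66, adjusted p = 0.897). That difference lay in 1 flow cell (log2 0.70) and not in the other (log2 -0.09).

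Apob was widely spread with BT2 (8871, 9771, 4945 and 7016 counts) and with vehicle (7585, 8577, 5829 and 5710), and differed by 0.12 (95% confidence interval -0.35 to 0.59). In both groups the flow cell of replicates 1 and 2 gave the higher Apob values. Apoe lay at 31160 to 34071 with vehicle and 31311 to 35937 with BT2 (log2 0.04, 95% confidence interval -0.17 to 0.26). Mttp, Apom and Apoa2 differed by 0.11, 0.12 and 0.12, Tm6sf2 by 0.04, and the Apoc1 entries both by -0.02. Apobec1 had 16.6 to 20.6 counts with vehicle and 6.67 to 21.8 with BT2 (log2 -0.68, 95% confidence interval -1.60 to 0.23), values worth 2 to 74 reads.

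**Figure D5:**
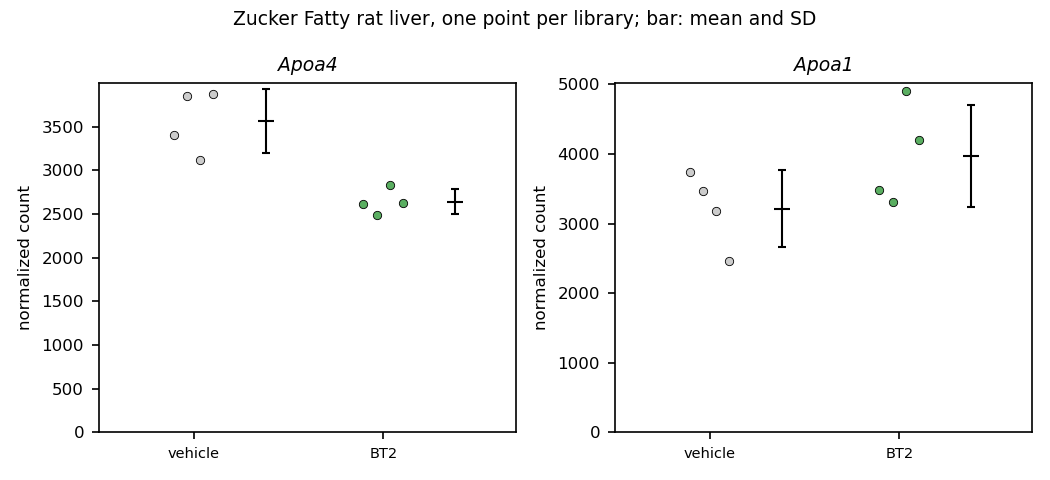
Normalized counts of Apoa4 and Apoa1 in each Zucker Fatty liver after vehicle or BT2 (linear axes from 0), with 1 point per library and bars for the mean ± SD. The 4 BT2 points of Apoa4 lie between 2486 and 2829, below all vehicle points, and those of Apoa1 overlap with vehicle.

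No gene of the wider pathway lists or of the marker lists passed with BT2. The largest log2 differences were those of Apoa5 (0.38) among other apolipoproteins, Mia2 entry 2 (-0.99) among assembly and export genes, Khsrp (-0.40) among editing cofactors, Pltp (-0.37) among HDL genes and Ppara (1.02) among regulators, with adjusted p-values of 0.897 each.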

How the data were processed

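Liver RNA was sequenced from poly(A) libraries, and the deposited values are a signal per gene, not whole counts. According to the labels and the methods, the authors aligned reads with STAR to mm10 or rn6, estimated counts with Salmon and normalized them with DESeq2. Of low values, 72.2% to 78.4% in mice and 75.3% to 91.8% in rats were whole multiples of 1 read's worth (tolerance 0.01), so no count test was run. The step of these values gave the depths, and counting error is larger in shallow libraries. Entries with no gene name (381 in mice, 201 in rats, at most 0.0461% of counts) were left out.

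Genes averaging 10 or more were tested with limma 3.58.1 in R 4.3.3 (trend, log2(normalized count + 1)), with Benjamini-Hochberg adjustment over all genes tested and exact two-sided permutation tests for single genes. Fold changes are on that scale. Mouse calls follow the criteria of the study, and rat calls use an adjusted p under 0.05. Groups come from the sample labels, which do not say that mice shared litters or days by replicate number. P-values by limma set a group difference against the spread between these animals, moderated by that of other genes. In shallow libraries this spread includes counting error too. The 10 genes and the wider lists were chosen with earlier results of these data known. Genes outside the 10 were named by rule: those called in each list, or the largest log2 difference where none was. The tests were tried on simulated data with changes put into genes of all levels. Of 2-fold changes, 80% were called in the WT/floxed setting and 70% in the SIRT1KO setting. In the rat settings 24% were called for Fatty against Lean and 8% for BT2. A rat gene that was not called may thus still differ. Alternatives were another pseudocount (10), no minimum, TMM scaling, weights, covariates, a replicate block, other criteria and leaving out each library. Positions and 3′ UTRs come from GENCODE M21. No rat annotation was used here. Results for some genes of the wider lists are not reported here.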

Additional observations from a re-analysis of the deposited data

Results flagged for a closer look

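Of 84 groups of 4 to 10 libraries checked, 3 held a value far from the others by Dixon's criterion, and chance alone would give about 5% of groups. Apoa1 had 4109 counts in Zucker Lean replicate 1, where the other Lean livers had 3080 to 3255. Apob had 180017 counts in SIRT1KO LNA29 replicate 2, where the others had 186630 to 187534. Mttp had 18953 counts in WT/floxed LNA29 replicate 2, where the highest of the others had 16774. None of these genes was called in the comparison that the library belongs to.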

How the results depend on the processing

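Apoa1 in WT/floxed mice kept its direction under all alternatives, with adjusted p-values of 0.00938 to 0.545. It was not called with a replicate block (log2 0.43, adjusted p = 0.545) or in WT or floxed mice alone, so that 0, 0 and 0 of the 10 genes were then called. The 688 genes called there became 396 with no minimum mean, 1309 with quality weights, 55 with the block, 88 in WT mice alone and 216 at an adjusted p under 0.05 alone. In mice labelled SIRT1KO the 292 genes became 160 with no minimum, 802 with weights, 103 with flow cell as a covariate, 145 with the block and 39 at an adjusted p under 0.05, and weights called 1 of the 10 genes. For the interaction the 7 genes became 1225 with weights (1 of the 10, Apoa1, adjusted p = 0.0522), 19 with flow cell, 0 with the block and 0 at an adjusted p under 0.05.

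Between Fatty and Lean rats, 376 genes became 230 with no minimum, 1179 with weights, 228 with the block, 706 with precision weights and 724 under the mouse criteria. Of the 11 entries, 1 passed with no minimum, 2 with TMM scaling and 3 with flow cell as a covariate, against 6. With the block 4 passed. Leaving out entries that share a name, an alternative added after the data were seen, removes both Apoc1 entries, and the other 4 calls held. Mttp (adjusted p = 0.0406) and Tm6sf2 (0.0055) passed with weights. With BT2, weights called 1 gene, precision weights 2 and the mouse criteria 1. Same-numbered samples correlated at -0.28 to 0.243 in WT/floxed mice and no more strongly than 0.179 in the other comparisons, so the numbers were not taken to pair the samples.

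Without 1 library, genes called ran from 381 to 1005 in WT/floxed mice, 77 to 426 in mice labelled SIRT1KO, 229 to 397 between Fatty and Lean rats, 0 to 2 with BT2 and 0 to 232 for the interaction, and the 10 genes or 11 entries called from 1 to 2, 0 to 0, 1 to 6, 0 to 0 and 0 to 1.

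Changes of sign were all in genes not called. In WT/floxed mice they were Mttp with weights (-0.0408), Apoc1 with the block (0.00914), Apoa4 with background as a covariate (0.0266), Apoa2, Apoa4, Apoc1 and Mttp in WT mice alone (0.0324, 0.0372, 0.137 and -0.0999) and Apoa4 and Apob in floxed mice alone (0.013 and -0.132). With BT2 they were Apoc1 entry 2 and Tm6sf2 with weights (0.00548 and -0.158), Tm6sf2 with precision weights (-0.0578), and Apoc1 entries 1 and 2 and Tm6sf2 without the library under 0.2 M reads (0.00107, 0.0589 and -0.0915). In the interaction they were Apoe and Apobec1 with weights (0.00887 and -0.0526) and Tm6sf2 with flow cell (-0.00125). Without 1 library, values crossed 0 for Apoa4 (-0.0949 to 0.0553), Apoc1 (-0.129 to 0.0183) and Mttp (-0.0782 to 0.0621) in WT/floxed mice, Apoa2 between Fatty and Lean rats (-0.177 to 0.114), Apoa2 (-0.0347 to 0.214), Apob (-0.0148 to 0.313), Apoc1 entries 1 (-0.0526 to 0.0134) and 2 (-0.0664 to 0.0589) and Tm6sf2 (-0.0915 to 0.178) with BT2, and Apobec1 (-0.123 to 0.168), Apoe (-0.0854 to 0.0178) and Tm6sf2 (-0.034 to 0.0628) in the interaction. The cause of these shifts was not tested. Depth limits the rat values of Apobec1 and Tm6sf2 most.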
